A study of Mus musculus with 2 samples.

Results

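The Wnt signalling genes of fetal thymic epithelium are described here across 2 RNA-seq libraries: the ligands, their Frizzled receptors and co-receptors, the secreted and membrane antagonists, and the core of the intracellular pathway. Members were taken by symbol (every Wnt, Fzd, Sfrp and Dkk gene with a number in its name, and a fixed set of further pathway genes), which gave 56 of the 25791 genes in the tables. The rule uses symbols and no measured value, but it was written with earlier results of these data known. Porcn was found under its own symbol, whereas Wls is absent as a symbol and appears under its older name Gpr177. Gpr177 is reported beside the 56 members and is not counted among them.

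Thymic epithelial cells were sorted from fetal mouse thymus at 15 days post coitum by surface markers, as negative for CD45 (a marker of blood cells) and PDGFRa (a marker of mesenchyme) and positive for EpCAM (a marker of epithelium). The library titled B6J comes from the strain C57BL/6 and carries the treatment label for absence of thymocytes. The library titled humanCD3eTg comes from the C57BL/6J x CBA/J background and carries the label for presence of thymocytes. The study compared epithelium with and without thymocytes. The title of the second library names a human CD3e transgene. A high copy number of human CD3E in mice is known to block T cell development, the opposite of that treatment label, and the labels give no copy number or line name. Pooling of animals is not given in the sources used here, and the mice also differ in genetic background between the libraries. Libraries are therefore called by their titles, and every ratio is that of humanCD3eTg over B6J.

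There was 1 library per group and no replicate, so no difference could be tested or set against a spread between mice. Levels are FPKM, fragments scaled by transcript length and by the mapped total of the library, a scale that allows comparison between genes. A gene counted as measured when its mean over the libraries was at least 1 FPKM, which held for 13493 genes. Log2 ratios are on FPKM + 1 unless the sentence says otherwise, and a difference is called 2-fold where this ratio is 1 or more in either direction. This pseudocount makes differences of low genes look smaller than in FPKM itself. Steps in the low values placed the depth at about 20000000 fragments in B6J and 15900000 in humanCD3eTg. The 95% intervals given for ratios of FPKM rest on this estimate, and cover counting error only.

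Markers of the labelled cell type were present. All 20 thymic epithelial markers reached 1 FPKM in both libraries, with a summed level of 9123 FPKM in B6J against 9048 in humanCD3eTg, of which the keratin genes Krt8 and Krt18 hold a large part. Of these markers 15 were lower in humanCD3eTg, with a median log2 ratio of -0.22. Foxn1 (-1.04) and Krt14 (-1.25) were at least 2-fold lower and Krt5 (1.77) was higher. The 20 thymocyte markers summed to 180.6 FPKM in B6J against 11.7 in humanCD3eTg, where 6 of them, Cd3d and Cd3g included, were listed at 0 (2 in B6J). These values run opposite to the deposited treatment labels, which give presence of thymocytes for humanCD3eTg and absence for B6J. The 15 pan-haematopoietic markers summed to 111.9 and 17.1 FPKM and the 15 endothelial markers to 67.9 and 19.2 FPKM, and no member of these lists was at 0. The 16 pigment cell and neural crest markers went the other way, from 43.4 to 213.5 FPKM, with 2 at 0 in B6J and 3 in humanCD3eTg. The 17 mesenchymal markers summed to 272.8 and 287.5 FPKM, with none at 0, but single markers went both ways. Of the 15 measured, 9 were lower in humanCD3eTg and 6 were higher, with a median log2 ratio of -0.06. The 2 that were at least 2-fold lower were Thy1 (-2.65) and Tcf21 (-1.26). The part of these cell types in the values below was not tested, and fewer cells of a type cannot be told apart from less RNA per cell.

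Wnt proteins are secreted lipid-modified ligands that bind Frizzled receptors. Together with the co-receptors Lrp5 and Lrp6 they stop the destruction complex, built on Axin, from degrading beta-catenin (Ctnnb1), which then joins Lef1 and Tcf factors on target genes. Secreted Sfrp proteins and Wif1 bind the ligands, while Dkk proteins bind Lrp5 and Lrp6 and use Kremen proteins to clear them from the surface. In the thymus, Wnt ligands made by the epithelium are known to act on the epithelium itself, Foxn1 expression is a reported target of such signals, and loss of Kremen1 is known to disturb thymic architecture.

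The sequence shown first is the promoter of Kremen2, because Kremen2 was the 1 member with a 2-fold difference. It covers 250 bases before to 50 bases after the gene's start (RefSeq, build GRCm38.p6, minus strand, chr17:23745780-23746079). The capitals mark matches to the consensus kB motif, the sequence that NF-kB factors are known to bind.
Kremen2: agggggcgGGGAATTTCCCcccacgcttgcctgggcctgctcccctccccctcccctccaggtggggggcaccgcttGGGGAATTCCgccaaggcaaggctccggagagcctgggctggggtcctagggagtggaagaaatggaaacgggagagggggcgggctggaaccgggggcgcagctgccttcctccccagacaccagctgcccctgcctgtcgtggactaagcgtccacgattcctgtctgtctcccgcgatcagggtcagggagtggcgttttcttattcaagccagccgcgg
The marked stretches begin 242 and 173 bases before the start. The kB motif was searched on both strands, with overlapping matches joined, and this search was chosen after the sequence had been seen. Of 32851 promoters of this length, 8.46% held at least 1 match and 0.521% held at least 2. Promoters of 36 of the 56 members were found in the RefSeq table, among them 19 of the 31 measured members. The other members could not be searched. Of the 44 promoters of these 36 members, 7 held a match (15.9%) and 3 held 2, those of Kremen2, Wnt10b and Wnt16. Both counts include the Kremen2 promoter, after which the search was chosen, so they are no fair comparison with all promoters. Of the 3 genes with 2 matches, Kremen2 and Wnt10b were measured, with log2 ratios of -1.69 and -0.37. The measured genes with 1 match were Fzd5 (-0.17), Tcf7l2 (-0.25) and Sfrp2 (0.41), so measured members with a match went both ways. Wnt16, and Rspo1 with 1 match, were under the limit of measurement. A match describes letters in this window and shows no binding.

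The binding motif of Lef1 and Tcf factors was searched as CTTTGA on both strands of the same promoters. It was in 5 of the 44 member promoters (11.4%), beside 16.0% of all 32851, and it was in neither the Kremen2 nor the Axin2 promoter. The windows that hold it are shown to set the factor's motif beside the genes of its own pathway. Capitals mark the motif, or its reverse complement, and each line runs 5′ to 3′ on the gene's strand.
Wnt5b: gtaagtctctCTTTGAtctgctccct
Wnt11: cgtgggcggaTCAAAGcgacggtccg
Fzd1: cgcagcacTCAAAGtagcagtctg
Lef1: aaatacatggTCAAAGgaaaataggt
Lef1: ttgtctgttcTCAAAGtcaggtcttg
Dkk1: cctcccaaagCTTTGAaatcccatcc
Dkk1: ggggagagtgTCAAAGtcctccctgc
Both Lef1 windows lie at the same, most downstream, of its annotated starts. In GRCm38.p6 the windows are chr6:119449442-119449467 (minus strand) for Wnt5b, chr7:98835052-98835077 (plus) for Wnt11 and chr5:4758443-4758466 (minus) for Fzd1. Those of Lef1 are chr3:131156104-131156129 and chr3:131156164-131156189 (plus). Those of Dkk1 are chr19:30549598-30549623 and chr19:30549655-30549680 (minus), in the order shown. The 4 measured genes of this set differed in direction, with log2 ratios of -0.50 for Wnt5b, 0.31 for Wnt11, -0.44 for Fzd1 and -0.61 for Lef1.

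Of the 56 members, 31 were measured by the limit of 1 FPKM (55.4%, beside 52.3% of all genes), and 28 of these reached 1 FPKM in both libraries. Wnt5b, Dkk3 and Nkd2 passed through 1 library alone, so their inclusion favours a difference. Among the measured members 1 was at least 2-fold lower, where 4.47% of all measured genes were, and none was at least 2-fold higher, where 2.10% of all genes were. With a limit of 1.5-fold, 6 were lower and 2 higher, beside 10.9% and 5.95% of all measured genes. The log2 ratio was below 0 for 20 of 31 members and for 55.4% of all measured genes. The median was -0.25 over the members and -0.05 over all measured genes. The size of the members' median depends on the settings: it was -0.11 with quantile normalization (0.02 for all genes), -0.12 with no filter (0.00), -0.13 with a pseudocount of 5 FPKM (-0.03) and -0.44 for genes whose mean reached 5 FPKM (-0.02). An estimated 30 to 14583 fragments lie behind each value of a measured member. At 2 decimals, the interval of the FPKM ratio lay below 0 for 19 of the 31 measured members and above 0 for 9. Such intervals cover counting error only, so leaving out 0 was common.

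**Figure D1:**
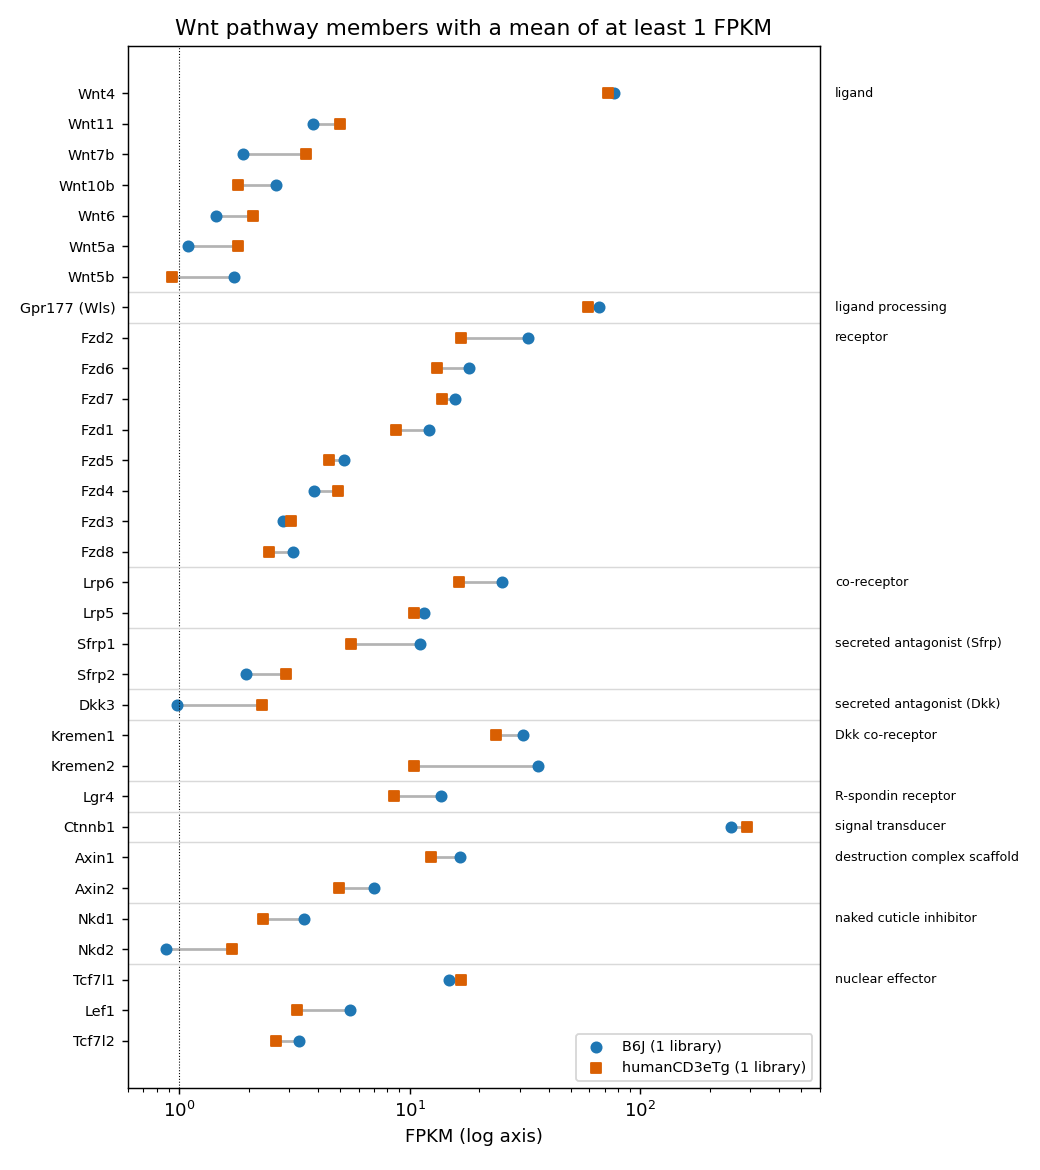
Level in FPKM (log axis) of the 31 measured members and of Gpr177 (Wls), grouped by role, with a circle for the B6J library and a square for the humanCD3eTg library; the dotted line marks 1 FPKM. Ctnnb1, Wnt4 and Gpr177 stand highest in both libraries, and the gap between circle and square is widest for Kremen2 (35.96 and 10.5 FPKM).

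Wnt4 was the dominant ligand transcript in both libraries. Wnt4 stood at 77.2 FPKM in B6J against 72.4 in humanCD3eTg (log2 ratio -0.09, interval of the FPKM ratio -0.15 to -0.04). It made up 83.3% of the summed FPKM of all 19 Wnt genes in B6J and 79.9% in humanCD3eTg. The summed level of the 19 genes was 92.7 and 90.5 FPKM. Foxn1, the master regulator of thymic epithelium and a reported target of Wnt signals, stood at 91.1 and 43.7 FPKM, a log2 ratio of -1.04 beside the -0.09 of Wnt4. The carrier that brings Wnt proteins to the cell surface, Wls, was listed as Gpr177 at 66.4 and 59.3 FPKM (log2 ratio -0.16). Porcn, the enzyme that attaches the lipid to Wnt proteins, stood at 0.716 and 0.274 FPKM and was not measured by the limit of 1 FPKM.

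The 6 other measured ligands lay far below Wnt4 and went both ways. Wnt11, a ligand mostly known for signals that do not need beta-catenin, stood at 3.81 FPKM in B6J against 4.98 in humanCD3eTg. Wnt7b, known as a beta-catenin ligand of several epithelia, stood at 1.89 and 3.54 FPKM. It was the highest of the measured ligands in log2 ratio, at 0.65, with an interval of the FPKM ratio of 0.55 to 1.27. Wnt5a, the prototype of ligands that act without beta-catenin, stood at 1.09 and 1.80 FPKM (log2 ratio 0.42), and its close relative Wnt5b at 1.73 and 0.931 FPKM (-0.50). These relatives thus stood on opposite sides. Their counting intervals of the FPKM ratio were 0.35 to 1.08 for Wnt5a and -1.58 to -0.27 for Wnt5b. Wnt5b was measured through B6J alone, so its inclusion favours a difference. Wnt6 stood at 1.447 and 2.098 FPKM, and its interval of -0.02 to 1.09 reached 0. Wnt10b stood at 2.64 and 1.81 FPKM, with an interval of -1.02 to -0.06. Without Wnt4, the summed level of the Wnt genes was 15.4 FPKM in B6J against 18.2 in humanCD3eTg.

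The remaining 12 ligands lay under the limit of measurement. Wnt10a stood at 0.483 FPKM in B6J against 1.40 in humanCD3eTg, and Wnt9a at 1.14 and 0.790 FPKM. They were the 2 low members of the whole set that reached 1 FPKM in 1 library. Wnt2b, which stood at 0.548 and 0.431 FPKM, was present at a low level in both libraries, and Wnt8b at 0.0472 and 0.0199 FPKM was close to nothing in either. Wnt1, Wnt2, Wnt3, Wnt7a, Wnt8a and Wnt9b were listed at 0 in humanCD3eTg and between 0.0347 and 0.185 FPKM in B6J. Wnt16 was listed at 0 in B6J and 0.388 FPKM in humanCD3eTg, and Wnt3a at 0 in both. A value of 0 in such tables can be a failed estimate, and B6J is the deeper library, so no fold is given for these genes.

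**Figure D2:**
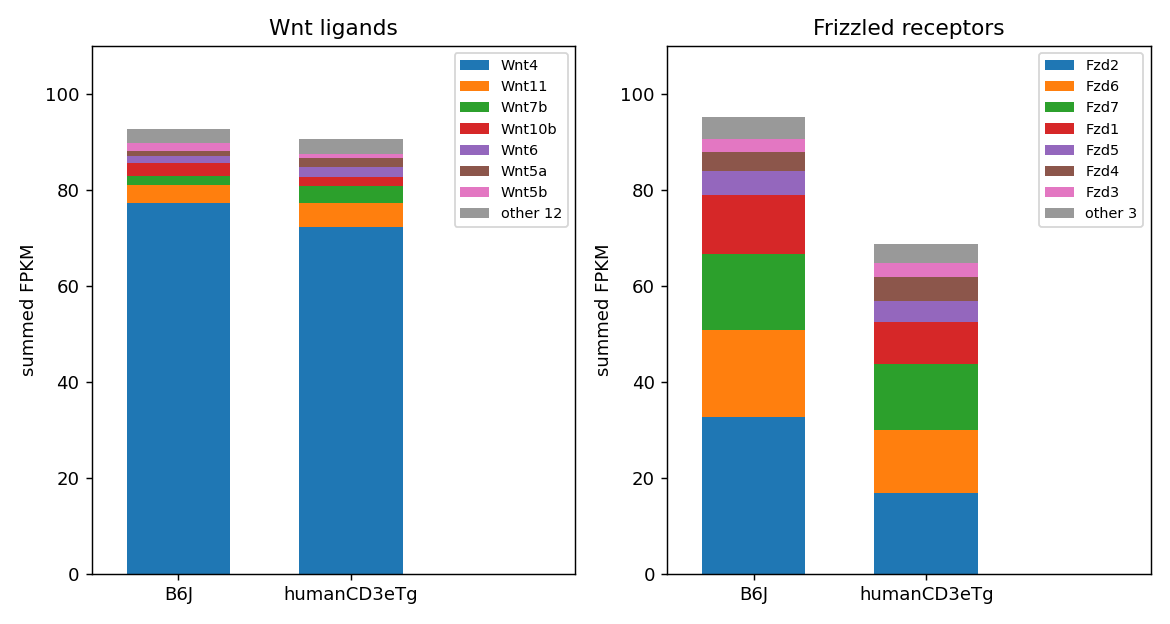
Summed FPKM of the 19 Wnt ligand genes (left) and the 10 Frizzled receptor genes (right) in the B6J and humanCD3eTg libraries, stacked by gene, with the 7 highest genes named and the rest in grey. Wnt4 fills most of the ligand bar in both libraries (83.3% and 79.9%), while the Frizzled bar is shorter in humanCD3eTg (68.8 against 95.2 FPKM), mostly through Fzd2.

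Frizzled transcripts were spread over several genes and summed to 95.2 FPKM in B6J against 68.8 in humanCD3eTg. Fzd2 was the highest Frizzled in both libraries, at 32.7 FPKM in B6J against 16.7 in humanCD3eTg. Its log2 ratio of -0.93 lay just inside the limit of 2-fold, and the interval of the FPKM ratio was -1.08 to -0.86. Fzd2 made up 34.4% of the Frizzled sum in B6J and 24.3% in humanCD3eTg. Among its closest relatives, Fzd1 stood at 12.2 and 8.72 FPKM (-0.44) and Fzd7 at 15.8 and 13.8 FPKM (-0.18). The group of Fzd1, Fzd2 and Fzd7 thus held 63.7% of Frizzled FPKM in B6J and 57.1% in humanCD3eTg.

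The other Frizzled groups were lower in summed level, and none of their genes differed as much as Fzd2. Fzd6, known from hair and tissue polarity, stood at 18.2 and 13.2 FPKM (log2 ratio -0.44), and its relative Fzd3 at 2.82 and 3.07 FPKM, with an interval of -0.04 to 0.28 that reached 0. Fzd5 stood at 5.17 and 4.48 FPKM and the related Fzd8 at 3.13 and 2.45 FPKM (log2 ratios -0.17 and -0.26). Fzd4, also known as a receptor for the ligand norrin, stood at 3.84 and 4.87 FPKM (0.28, interval of the FPKM ratio 0.16 to 0.52). It was the 1 Frizzled whose interval lay above 0. The order of the 3 highest after Fzd2 was Fzd6, Fzd7 and Fzd1 in B6J, while in humanCD3eTg Fzd7 stood above Fzd6 by less than 1 FPKM. Fzd9 stood at 0.445 and 0.695 FPKM and Fzd10 at 0.933 and 0.770 FPKM, under the limit of measurement.

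The co-receptors differed unequally. Lrp6 stood at 25.1 FPKM in B6J against 16.4 in humanCD3eTg (log2 ratio -0.59, interval of the FPKM ratio -0.69 to -0.54). Lrp5 stood at 11.5 and 10.4 FPKM (-0.13, interval -0.27 to -0.01). The intervals of the co-receptors do not overlap, which concerns counting error only. Lrp6 was the higher of the pair in both libraries. Lgr4, a receptor for R-spondins, which strengthen Wnt signals by protecting Frizzleds from removal, stood at 13.7 and 8.53 FPKM (-0.63, interval -0.82 to -0.55). Lgr5, its relative known from stem cells, stood at 0.437 and 0.181 FPKM. The R-spondins themselves were low in the sorted cells. Rspo1 stood at 0.398 and 0.929 FPKM and Rspo3 at 0.433 and 0.316 FPKM, and Rspo2 was at 0.0955 FPKM in B6J and listed at 0 in humanCD3eTg.

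Kremen2 showed the widest difference of all measured members. Kremen2 stood at 35.96 FPKM in B6J against 10.5 in humanCD3eTg, which is 3.43-fold lower in FPKM. Its log2 ratio was -1.69, and the interval of the FPKM ratio was -1.96 to -1.60. Of the 13493 measured genes, 253 (1.88%) had a log2 ratio as low or lower. Kremen1 stood at 31.1 and 23.7 FPKM (-0.38, interval -0.48 to -0.31). Kremen2 was therefore the higher of the pair in B6J, with 53.6% of their sum, and the lower in humanCD3eTg, with 30.7%. Thymocyte, blood and endothelial markers were lower in the same library, and their part in the Kremen2 value was not tested. Exons of 9530082P21Rik overlap Kremen2 on the opposite strand in the GENCODE annotation, and this gene stood at 6.58 and 5.52 FPKM. Whether strand was used in counting is not given here, so reads of the pair cannot be told apart. Of the 31 measured members, 11 share exonic bases with another annotated gene in this way, and for 3 of them (Kremen2, Ctnnb1 and Tcf7l1) that gene has a value in the tables.

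**Figure D3:**
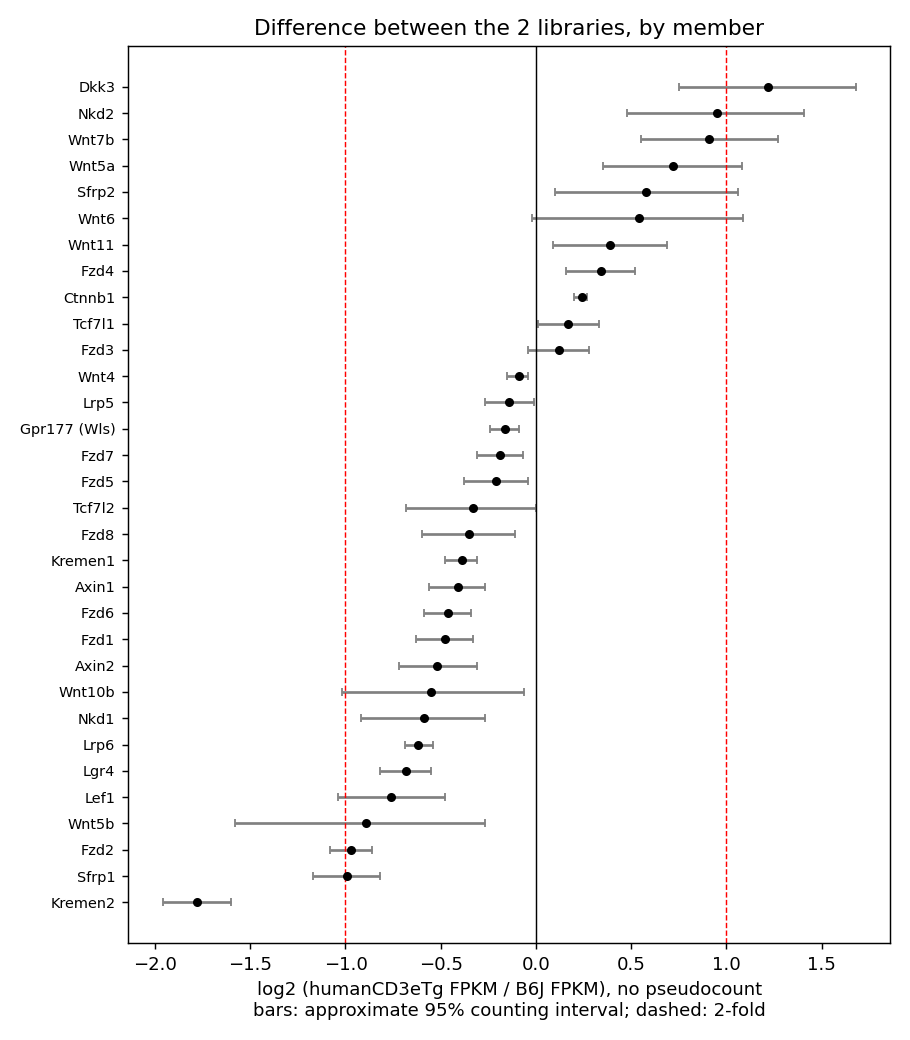
Log2 ratio of FPKM, humanCD3eTg over B6J, without a pseudocount, for the 31 measured members and Gpr177 (Wls), sorted by value; bars are approximate 95% intervals from counting error and dashed lines mark 2-fold. Kremen2 stands apart at the lower end, Sfrp1 and Fzd2 lie next to the lower 2-fold line, and Dkk3 lies past the upper one on this scale.

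The secreted antagonists were low next to their targets, with a summed level of 15.8 FPKM in B6J against 13.2 in humanCD3eTg over 9 genes. Sfrp1, the highest of them, stood at 11.1 FPKM in B6J against 5.57 in humanCD3eTg (log2 ratio -0.88, interval of the FPKM ratio -1.17 to -0.82). Sfrp2 stood at 1.95 and 2.91 FPKM (0.41, interval 0.10 to 1.06). Sfrp1 thus made up 81.2% of the Sfrp sum in B6J and 59.5% in humanCD3eTg. Sfrp4 stood at 0.353 and 0.324 FPKM and Sfrp5 at 0.265 and 0.558 FPKM. Wif1 was listed at 0 in B6J and 0.495 FPKM in humanCD3eTg.

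Among the Dkk genes, the partners of the Kremen proteins were scarce. Dkk1, the best-known blocker of Lrp5 and Lrp6, stood at 0.979 FPKM in B6J against 0.742 in humanCD3eTg. Dkk2 stood at 0.171 and 0.293 FPKM and Dkk4 was listed at 0 in both. Dkk3, a divergent member whose action on Wnt signals is less clear, stood at 0.982 and 2.28 FPKM. It was the highest member by log2 ratio, at 0.73, and 2.32-fold higher in FPKM itself (interval 0.75 to 1.68 on the log2 scale). With a pseudocount of 0.1 its log2 ratio was 1.14. On that scale Dkk3 was the 1 measured member at least 2-fold higher, where 3.51% of all measured genes were. Kremen2 was the 1 measured member at least 2-fold lower, where 6.69% were. Dkk3 was measured through humanCD3eTg alone, so its inclusion favours a difference. The Kremen transcripts, at a sum of 67.1 and 34.1 FPKM, stood well above those of the Dkk genes, at 2.13 and 3.32 FPKM, in both libraries.

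Inside the cell, beta-catenin was the highest member. Ctnnb1, which also links cadherins at cell junctions, stood at 247.0 FPKM in B6J against 291.3 in humanCD3eTg (log2 ratio 0.24, interval of the FPKM ratio 0.20 to 0.27). Axin1, the scaffold of the destruction complex, stood at 16.5 and 12.4 FPKM (-0.39, interval -0.56 to -0.27). Axin2, the related scaffold and a widely used feedback target of beta-catenin, stood at 7.03 and 4.91 FPKM (-0.44, interval -0.72 to -0.31). Nkd1, a feedback inhibitor that acts on Dishevelled, stood at 3.49 and 2.32 FPKM (-0.44), whereas Nkd2 stood at 0.877 and 1.69 FPKM (0.52). Each of these genes lay within 2-fold on FPKM + 1.

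Of the nuclear effectors, Tcf7l1 was the highest. Tcf7l1, mostly known as a repressor, stood at 14.9 FPKM in B6J against 16.7 in humanCD3eTg (log2 ratio 0.16, interval of the FPKM ratio 0.01 to 0.33). Tcf7l2 stood at 3.30 and 2.62 FPKM (-0.25), with an interval from -0.68 to just below 0. Lef1, which thymocytes and pigment cells are also known to express, stood at 5.49 and 3.24 FPKM (-0.61, interval -1.04 to -0.48). The remaining member of this gene family, Tcf7, is a thymocyte gene as well and stood at 27.2 and 3.57 FPKM (-2.63). Thymocyte markers, a list that includes Tcf7 itself, were lower in the same library (median log2 ratio -2.84 over 12 measured, with 11 at least 2-fold lower). Pigment cell and neural crest markers were higher (1.52 over 13, with 10 at least 2-fold higher). The part of these cell types in the Lef1 value was not tested.

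**Figure D4:**
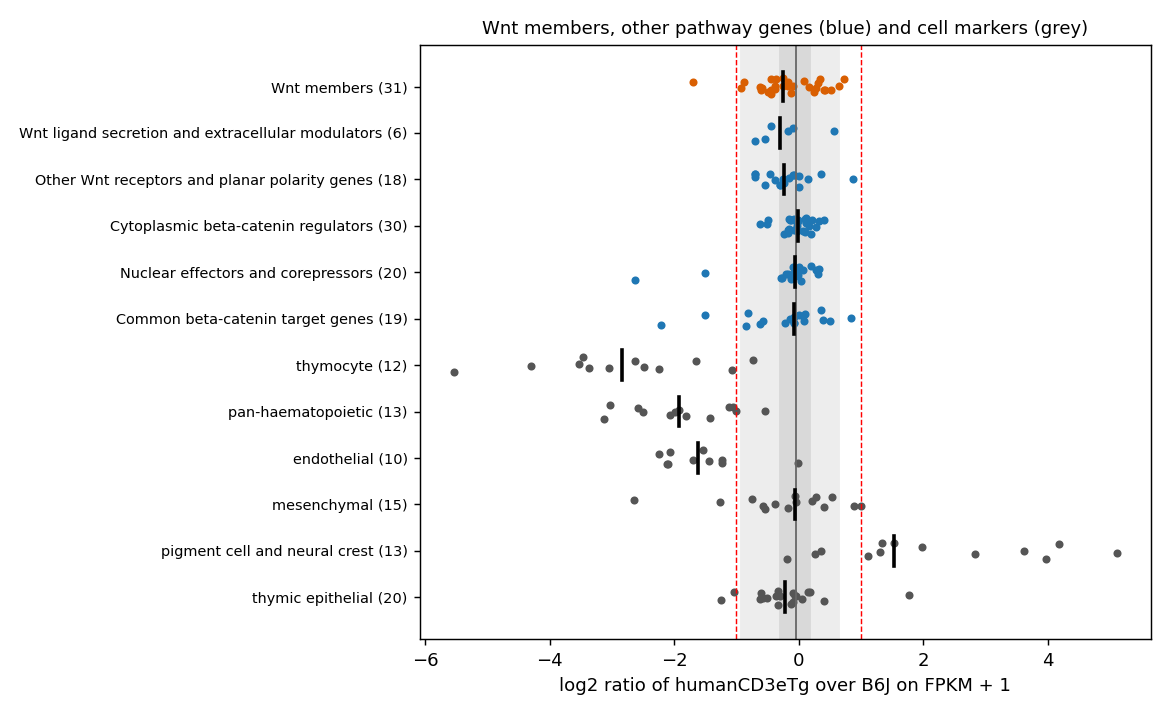
Log2 ratio on FPKM + 1, humanCD3eTg over B6J, for each measured gene of the Wnt members (orange), 5 lists of other pathway genes (blue) and 6 lists of cell markers (grey), with the number of genes in brackets and the median as a black bar; the light band holds the central 90% of all measured genes (-0.93 to 0.65), the dark band the central 50% and dashed lines mark 2-fold. Most pathway genes lie within the light band, while thymocyte, blood, endothelial and pigment cell markers lie mostly outside it.

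Further pathway genes outside the member set were taken from 5 lists. For each list, the shares of all measured genes at least 2-fold lower (4.47%) and higher (2.10%) are the background. None of the 18 measured receptors and polarity genes differed by 2-fold on FPKM + 1, and their median was -0.24 beside -0.05 for all measured genes. Ptk7, a co-receptor of the polarity branch, stood at 47.4 FPKM in B6J against 28.8 in humanCD3eTg (-0.70). Celsr1, an adhesion receptor of the same branch, stood at 15.2 and 9.02 FPKM (-0.70), and Lrp4, an Lrp relative, at 12.1 and 7.07 FPKM (-0.70). Ryk, a Wnt receptor kinase, stood at 24.89 and 24.97 FPKM. Rnf43, the enzyme that removes Frizzleds and is countered by R-spondins, stood at 13.7 and 9.11 FPKM (-0.54). Prickle1 was the highest of this list by ratio, at 1.85 and 4.21 FPKM (0.87). In FPKM itself it was 2.27-fold higher, with an interval of 0.88 to 1.48 on the log2 scale. The 6 measured extracellular modulators had a median of -0.31 with none past 2-fold, and the highest, Tinagl1, Gpc3 and Gpc4, stood at 42.3 and 37.5, 18.0 and 27.1, and 9.088 and 8.504 FPKM.

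The cytoplasmic regulators lay close to no difference. Of 30 measured genes none differed by 2-fold, and the median was -0.02. Csnk1a1, a kinase that starts the destruction of beta-catenin, stood at 150.9 FPKM in B6J against 172.0 in humanCD3eTg. Strap stood at 82.3 and 90.0 FPKM, and Dact2, a Dishevelled-binding protein gene, at 80.8 and 56.5 FPKM (-0.51). Of 20 measured nuclear effectors and corepressors 2 were at least 2-fold lower (median -0.06), beside the background of 4.47%. These were Tcf7, given above, and Sox7, an endothelial transcription factor gene as well, at 2.28 and 0.165 FPKM. Sox7 was measured through B6J alone, and Tcf7 is the 1 such gene among the 19 that reached 1 FPKM in both libraries. Aes, a short Groucho-type corepressor gene, was the highest of that list, at 243.0 and 249.9 FPKM.

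Common beta-catenin target genes had a median of -0.08 over 19 measured genes, with 12 lower and 7 higher. At least 2-fold lower were 2 of them, beside the background of 4.47%, and none was at least 2-fold higher on FPKM + 1. Msx1, a homeobox gene, stood at 2.78 FPKM in B6J against 0.334 in humanCD3eTg (-1.50). Cdx1, an intestinal homeobox gene, was listed at 0 in humanCD3eTg and had 3.62 FPKM in B6J. Both were measured through B6J alone, so their inclusion favours a difference, and none of the 15 targets at 1 FPKM in both libraries was 2-fold lower. Ccnd1, a cell cycle gene, had the highest ratio of the list, at 3.16 and 6.39 FPKM (0.83), and was 2.02-fold higher in FPKM itself. The 3 highest targets in level lay within 1.5-fold, with Jun at 286.5 and 271.3 FPKM, Fosl1 at 61.6 and 80.5 FPKM and Id2 at 55.8 and 58.7 FPKM. Many of these targets also respond to other signals, so the list is not specific for Wnt.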

How the data were processed

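RNA of 2 libraries of sorted fetal thymic epithelial cells was sequenced after a TruSeq library preparation, per the labels' protocols. The authors deposited 1 FPKM value per gene symbol and library. Per the submitters' processing notes, the tools were TopHat2 2.0.8, Bowtie2 2.1.0 and Cufflinks 2.1.1 and the build mm9, with no role stated. For the annotation and the use of strand, nothing is given in the sources used here.

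Libraries were grouped by title. Log2 ratios were computed on FPKM + 1 with Python 3.11.15 and pandas 2.3.3, for genes whose mean over the libraries reached 1 FPKM. Values of at most 0.001 FPKM are said to be listed at 0. What 1 fragment is worth was searched between 0.02 and 0.15 FPKM over 1 kb, on genes with 1 GENCODE M21 transcript, less 210 bases. The steps were 0.05 in B6J and 0.063 in humanCD3eTg. Of 614 and 422 low genes, 54.2% and 55.7% lay within 0.1 of a whole number of fragments. The depth is therefore approximate, and count tests were not used. The commonest ratio of low values, which needs no lengths, was 1.26, equal to the ratio of the steps. It was held by 119 of 3446 low genes. Intervals of ratios are exact binomial (Clopper-Pearson) on fragments estimated from the median length of transcripts with a RefSeq match. Steps were tested on simulated data.

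Members, lists and rules were chosen with earlier results of these data known. Named genes were all measured members, low members that complete a family and, of each list, genes past 2-fold and the highest in level. Other list genes were chosen after their values were seen. Promoters are from RefSeq, build GRCm38.p6. Protein sequences were not used here. Alternatives were other pseudocounts, filters, scalings and fold limits.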

Additional observations from a re-analysis of the deposited data

How the results depend on the processing

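Kremen2 kept a log2 ratio between -1.77 and -1.40 over the pseudocounts, filters and scalings tried. None of the 31 measured members changed sign under them. A pseudocount or a filter cannot change the sign of a ratio, so only the scalings could have done so. The count of 1 member at least 2-fold lower was the same under each of these pseudocounts, filters and scalings. It became 6 at a limit of 1.5-fold (Kremen2, Fzd2, Sfrp1, Lgr4, Lef1 and Lrp6) and 0 at 4-fold. The count of 0 measured members at least 2-fold higher became 1 with a pseudocount of 0.1 FPKM (Dkk3). It became 2 at 1.5-fold (Dkk3 and Wnt7b). Dkk3 was measured through humanCD3eTg alone. The median over members was -0.25. It was -0.32 with a pseudocount of 0.1, -0.13 with 5, -0.12 with no filter over all 56 members, -0.44 over the 15 members whose mean reached 5 FPKM, and -0.11 with quantile normalization. Other settings, including Gpr177 as a member and at least 1 FPKM in both libraries (both added after seeing the data), moved it by at most 0.05. No scaling moved the median of all genes by more than 0.1. No paired analysis was possible because each group has 1 library, and for the same reason no library could be left out. Members below 1 FPKM rest on few fragments.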
